A study of Sus scrofa with 9 samples.

Results

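Cytosolic ribosomal protein genes were followed in developing deciduous teeth of the miniature pig. Members were all rows of the expression table whose symbol is RPL or RPS with a number, with RPLP1, RPLP2 and RPSA beside them, and kinase and Y-linked rows left out. The rule took 70 of the 34580 rows, namely 38 genes of the large subunit, 26 genes of the small subunit and 6 paralogs. The tissue was the germ of the third deciduous molar of the mandible (Dm3), dissected from fetuses on embryonic day 40, 50 or 60. These ages, written E40, E50 and E60, are the cap, the early bell and the late bell stage in the authors' staging. Each stage had 3 RNA sequencing libraries. The sources used here do not say whether the 3 libraries of a stage came from separate fetuses or litters, so the p-values below measure only the spread between these libraries.

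The cytosolic ribosome is built from a large and a small subunit, each a set of ribosomal RNAs and a large set of proteins. Nearly every one of these proteins is needed in a single copy per ribosome, and their mRNAs carry a 5′ terminal oligopyrimidine (TOP) tract through which the mTOR pathway and LARP1 control their translation as a group. A tooth germ in the cap and bell stages grows by cell division, and its ameloblasts and odontoblasts later secrete the matrix proteins of enamel and dentin.

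Levels are FPKM, fragment counts scaled by exon length and by the mapped fragments of the library, as the authors deposited them. Whole reads could be recovered from the steps between FPKM values, and the 9 libraries fell into sets of very unequal depth. The 3 E50 libraries and E60 library 1 held 13840610 to 16167206 reads, and the 3 E40 libraries and E60 libraries 2 and 3 held 681622 to 1204251 reads. These are called the deeper and the shallower libraries. Stage and depth cannot be told apart between E40 and E50, and E60 library 1 stood apart from the other E60 libraries, so results are given with and without it. All 3 E60 libraries carried the ameloblast markers AMEL, AMBN and ENAM. The 5 rows found for a list of 9 ameloblast markers summed to 3387 to 18298 FPKM at E60. At E40 and E50 they summed to 14.4 to 23.9 FPKM. AMTN did not follow, at 10.5 to 15.6 FPKM at E50 and 0.819 to 4.83 FPKM at E60, and ODAM reached at most 2.06 FPKM in any library. The 5 dental epithelium markers summed to 1238 to 4793 FPKM in all libraries, with CDH1 listed at 0. KRT5 and KRT14 made up most of this sum. EPCAM went with the library set, at 51.6 to 67.6 FPKM in the deeper and 8.96 to 22.5 FPKM in the shallower libraries. The 5 dental mesenchyme markers summed to 281 to 431 FPKM in the deeper and 81.0 to 228 FPKM in the shallower libraries.

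Of 77 core subunit symbols looked for, 64 met the rule, 6 had a row only under a RefSeq locus name and 7 had no row found. Shares and sums below are those of the rows that met the rule, not of the whole ribosome. Of the 64 core subunit genes, 59 were detected, 33 of the large and 26 of the small subunit. RPL7, RPL10, RPL23, RPL36A and RPL37 were listed at 0 in every library, as was RPL3L, the striated muscle paralog of RPL3. RPS16, a protein of the small subunit, stayed between 0 and 2.64 FPKM. Ribosomal protein genes have many processed copies in mammalian genomes, and how reads matching several places were counted is not given in the sources used here, so a value of 0 and the level of any single member are uncertain. RPL4, RPL23A, RPS7 and RPS24 stood under locus names that RefSeq (Sscrofa11.1) pairs with these symbols, and they lay outside the rule. RPS4 is the row that RefSeq lists as a synonym of RPS4X.

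The members took a large share of each library, and the share averaged 14.3% in the deeper and 6.99% in the shallower libraries. Of all summed FPKM, they made up 5.98%, 7.28% and 9.0% in E40 libraries 1, 2 and 3. The share was 9.65%, 14.2% and 18.8% in the E50 libraries. It was 14.6%, 3.89% and 8.78% in E60 libraries 1, 2 and 3. E50 was above E40 in all of its libraries, while the E60 libraries spanned both stages. The means were 7.42% ± 1.52 at E40, 14.2% ± 4.55 at E50 and 9.08% ± 5.35 at E60 (SD, n = 3 each), and E60 without library 1 averaged 6.33%. The summed share is a score over chosen members, and no test was made of it. Paralogs contributed 0.0139% to 0.107%.

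**Figure D1:**
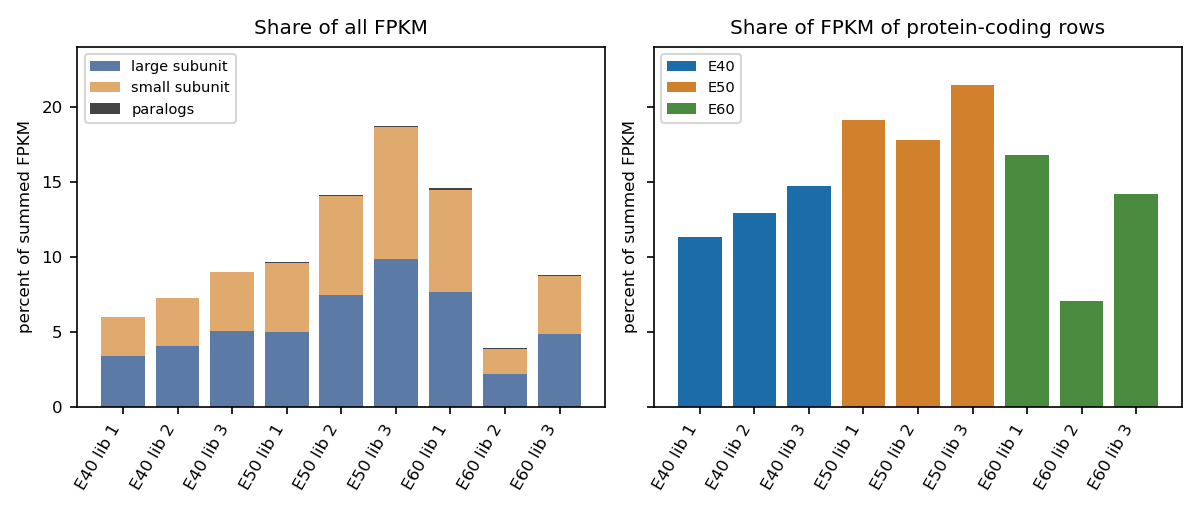
Share of summed FPKM taken by the 70 ribosomal protein genes in each of the 9 libraries. The left bars stack the large subunit, the small subunit and the paralogs as a percent of all rows, and the right bars give the percent of protein-coding rows only, coloured by stage. E60 library 1 stands at the level of the E50 libraries on the left, and the range narrows from 3.89% to 18.8% on the left to 7.03% to 21.5% on the right.

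Other abundant RNAs also differed between the libraries. A 5.8S ribosomal RNA row (RN5-8S) held 40.4% of the FPKM of E50 library 1 and 7.32% of E50 library 2. In every other library it held at most 0.0423%. The row LOC102158401 held 9.81% to 18.9% in the shallower and at most 0.184% in the deeper libraries. A row for tRNA-Ser held 8.24% to 10.9% in the shallower libraries and at most 0.0364% in the deeper ones, and the part of such rows in the results below was not tested. Against protein-coding rows only, the members held 11.3%, 12.9% and 14.7% at E40, 19.1%, 17.8% and 21.5% at E50, and 16.8%, 7.03% and 14.2% in E60 libraries 1, 2 and 3. On this scale the E50 libraries were closer to each other, and E60 library 1 fell below all of them. As a share of recovered reads the members held 2.84% in E60 library 2 (95% Wilson interval 2.81% to 2.88%, counting error only) and 3.94% to 7.85% in the other libraries. In bulk tissue a lower share of these mRNAs per cell and fewer cells rich in them cannot be told apart.

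The most abundant member was RPL17, a large subunit protein that lines the tunnel through which the new peptide leaves. It measured 2816, 3318 and 4230.2 FPKM at E40, 3508, 3537 and 5119 FPKM at E50, and 3468, 1827 and 4325 FPKM at E60. RPL17 was the highest member in every library, and its stages overlapped. RPL13A and RPL35 were also among the 5 most abundant by mean FPKM over the 9 libraries. RPL15, RPL10A, RPL18 and RPL27A were the lowest detected core genes after RPS16, with means of 63.7 to 230.3 FPKM. Even so, every core gene but RPS16 had at least 21 reads in each library, and the core genes had a median of 280 to 891 reads in the shallower and 12488 to 16594 in the deeper libraries.

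**Figure D2:**
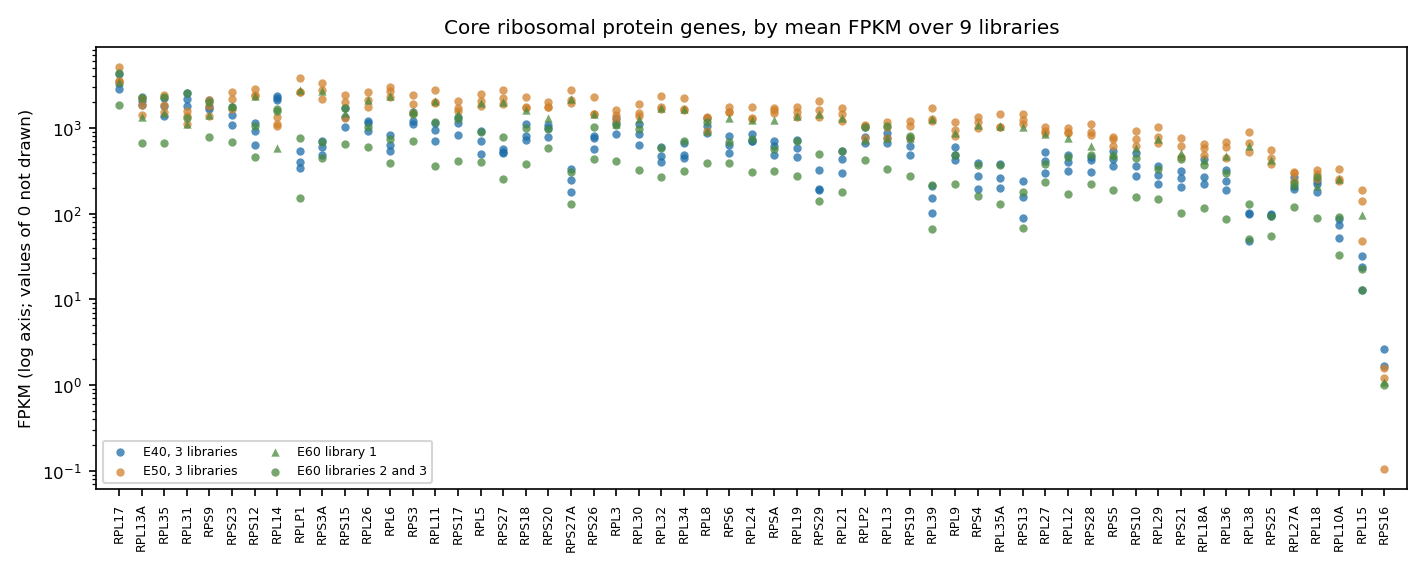
FPKM of 57 detected core subunit genes (log axis), ordered by mean over the 9 libraries. Blue marks E40, orange E50 and green E60, with a triangle for E60 library 1. From RPL17 at the left to RPS16 at the right, the triangle follows the orange points for most genes, and the green circles follow the blue points.

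Subunit genes were not spread alike in all libraries. Over the 58 core genes with at least 1 FPKM in every library, the SD of log2 FPKM between genes was 1.40 ± 0.07 at E40, 0.98 ± 0.03 at E50 and 1.25 ± 0.21 at E60 (SD over 3 libraries). E60 library 1 had 1.01, while E60 libraries 2 and 3 had 1.38 and 1.35. The spread was thus between 0.96 and 1.02 in the deeper libraries and between 1.34 and 1.48 in the shallower ones, with no overlap. Over the 19618 features with at least 1 FPKM in 2 or more libraries, the SD was 2.83 to 3.10 in the deeper libraries. It was 2.36 to 2.58 in the shallower ones, so over all features it went the other way. With RPS16 kept the spread between core genes rose to 1.85, 1.70 and 1.81 at E40, E50 and E60. The sets then overlapped, at 1.59 to 1.87 in the deeper and 1.68 to 2.15 in the shallower libraries. Large subunit genes summed to 1.26 to 1.31 times the small subunit genes in the shallower libraries and to 1.07 to 1.12 times in the deeper ones.

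The order of the subunit genes followed the same line. Spearman's rho of FPKM over the 58 genes was 0.940 to 0.985 for the 6 pairs of deeper libraries and 0.942 to 0.993 for the 10 pairs of shallower libraries. It was 0.517 to 0.704 for the 20 pairs that join a deeper and a shallower library. These are descriptions across genes, which share the library and are not replicates. Relative to the core median of their library, 16 core genes were higher in all 4 deeper than in all 5 shallower libraries, 24 were lower in all of them, and 19 overlapped. This count was not made over all features, so it was not read as particular to the members. The difference between the sets had a rho of -0.08 with gene length and -0.69 with the level in the shallower libraries, which itself enters the difference.

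**Figure D3:**
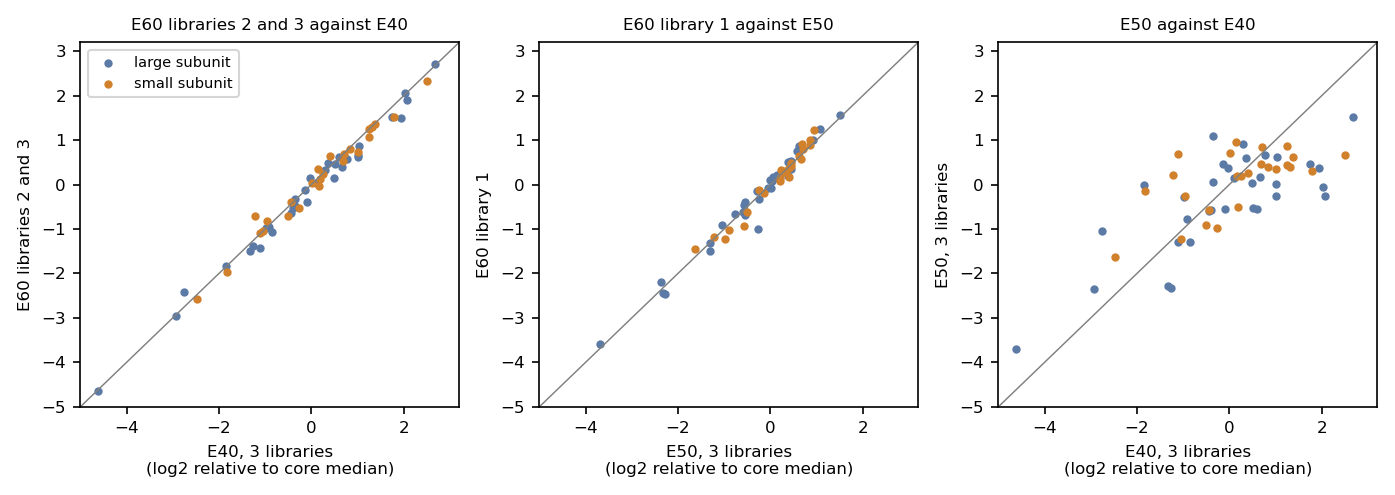
Level of 58 core genes relative to the core median of the library (log2), averaged over the libraries named on each axis, with large subunit genes in blue and small subunit genes in orange. The points lie near the line of equality for E60 libraries 2 and 3 against E40 and for E60 library 1 against E50. They scatter for E50 against E40, from -2.34 to 1.83 in log2 difference.

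From E40 to E50, 18 of the 64 members that passed the filter on low values were upregulated and 0 were downregulated in FPKM as deposited. This fit was limma over all 19618 features with Benjamini-Hochberg adjustment, and calls required an adjusted p below 0.05 together with a change of 1 or more on the log2 scale. Of all features, 38.6% were called, 16.8% as higher and 21.8% as lower. Among the members, 9 large subunit genes, 7 small subunit genes and the paralogs RPL22L1 and RPL26L1 rose. The median log2 fold change of the 59 core genes was 1.21, beside 0.55 over all features, and 0.55 beside -0.14 after median-ratio scaling of the libraries. With that scaling 18 members were higher and 1, RPL31, was lower. The count rested on few libraries. It was 0 without E40 library 1, E40 library 2, E50 library 2 or E50 library 3, 2 without E50 library 1, 6 without E40 library 3, 9 without E60 library 3 and 38 without E60 library 2. The share of all features called was not counted for these fits, so nothing particular to the members was read from them. Without E60 library 1 the count of members was 32, where 54.6% of all features were called, 30.5% as higher. On the recovered reads limma-voom called 18 members, 16 of them shared, where 32.4% of all features were called.

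To see which subunit genes departed from the others, each library was set to its core median, the median log2(FPKM + 0.1) of the 64 core genes. This took out the scaling of the library and much of what the members shared. The 5 core genes listed at 0 entered the median. On this scale the 59 detected core genes kept a median log2 fold change of -0.18 from E40 to E50. Changes close to the limit of 1 can pass or fail by this offset. On this scale 7 of the 64 members were higher at E50 and 12 were lower, where 37.6% of all features were called, 3.09% as higher and 34.5% as lower. The same 19 members were called without E60 library 1, where 43.7% of all features were called. By limma-voom on the recovered reads 13 members were called, 12 of them shared, beside 31.1% of all features. The count was 0 without E40 library 1, E50 library 2 or E50 library 3, 5 without E40 library 2, 9 without E50 library 1 and 12 without E40 library 3. For these last fits the share of all features called was not counted, and nothing particular to the members was read from them.

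The members that rose against the rest were RPL39, RPL38, RPLP1, RPS27A, RPS13, RPS29 and the paralog RPL22L1. RPL39, a very small protein within the exit tunnel, measured 102, 151 and 209 FPKM at E40 and 1201, 1273 and 1720.3 FPKM at E50. In E60 libraries 1, 2 and 3 it measured 1259, 66.3 and 218 FPKM. E50 lay above E40 in every library, and E60 held a library of each kind. Between E40 and E50 its log2 fold change was 3.22 ± 0.90 (SE, limma, adjusted p = 0.0243), and 1.83 ± 0.49 relative to the core median (adjusted p = 0.0197).

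RPS27A, which is made as a fusion with ubiquitin, measured 179, 246 and 332 FPKM at E40, 1932, 2138 and 2754 FPKM at E50, and 2193, 130.3 and 308 FPKM at E60. Its level was high in the same 4 libraries as that of RPL39. The log2 fold change against the core median was 1.81 ± 0.49 (SE, limma, adjusted p = 0.0212). RPL38, whose loss disturbs patterning of the axial skeleton in mice, measured 47.9, 99.7 and 102 FPKM at E40, 662, 523 and 887 FPKM at E50, and 621, 50.2 and 129.7 FPKM at E60. It was also high in the deeper libraries only, at 1.71 ± 0.41 from E40 to E50 relative to the core median (SE, limma, adjusted p = 0.0164). RPS13 and RPS29, both of the small subunit, followed at 1.68 ± 0.47 and 1.45 ± 0.32 (SE, limma, adjusted p = 0.0234 and 0.0154).

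The acidic stalk of the large subunit, which recruits elongation factors, contains RPLP1 and RPLP2 in equal numbers. RPLP1 measured 338, 402 and 534 FPKM at E40, 2587, 2615 and 3799 FPKM at E50, and 2775, 153 and 758 FPKM at E60. RPLP2 measured 658, 780.0 and 1029.6 FPKM at E40, 1056, 755 and 1084 FPKM at E50, and 720.0, 427 and 1019.6 FPKM at E60. The stalk partners thus parted: RPLP1 was high in the deeper libraries and RPLP2 overlapped between all stages. Against the core median, RPLP1 rose by 1.43 ± 0.45 and RPLP2 fell by 1.15 ± 0.36 on the log2 scale (SE, limma, adjusted p = 0.0337 and 0.0317). RPLP0, which anchors the stalk, stood under a locus name at 0 to 0.984 FPKM.

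Of the 12 members that fell against the rest, 10 belong to the large subunit, with RPL14, RPL31, RPL13A, RPL35, RPL8, RPL17 and RPLP2 among them. RPL14, a large subunit protein on the solvent side, measured 2350.4, 2259.9 and 2110.0 FPKM at E40, 1039.9, 1107 and 1353 FPKM at E50, and 582, 1559 and 1643 FPKM at E60. It was the only one of the 12 whose level as deposited was below all E40 values in every E50 and E60 library. It fell by 2.34 ± 0.74 on the log2 scale relative to the core median (SE, limma, adjusted p = 0.0352), while as deposited its log2 fold change was -0.95 ± 0.53 (adjusted p = 0.168) and no call was made.

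RPL31, at the rim of the exit tunnel, measured 1809, 2162 and 2566 FPKM at E40, 1380.4, 1098 and 1571 FPKM at E50, and 1108, 1287 and 2538 FPKM at E60. All E50 values were below all E40 values, while the core median was higher at E50, and E60 library 3 lay within the E40 range. Set to the core median, RPL31 fell by 2.08 ± 0.53 on the log2 scale (SE, limma, adjusted p = 0.0178). RPL13A and RPL17 fell by 1.57 ± 0.37 and 1.16 ± 0.35 on that scale (SE, limma, adjusted p = 0.016 and 0.0292).

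**Figure D4:**
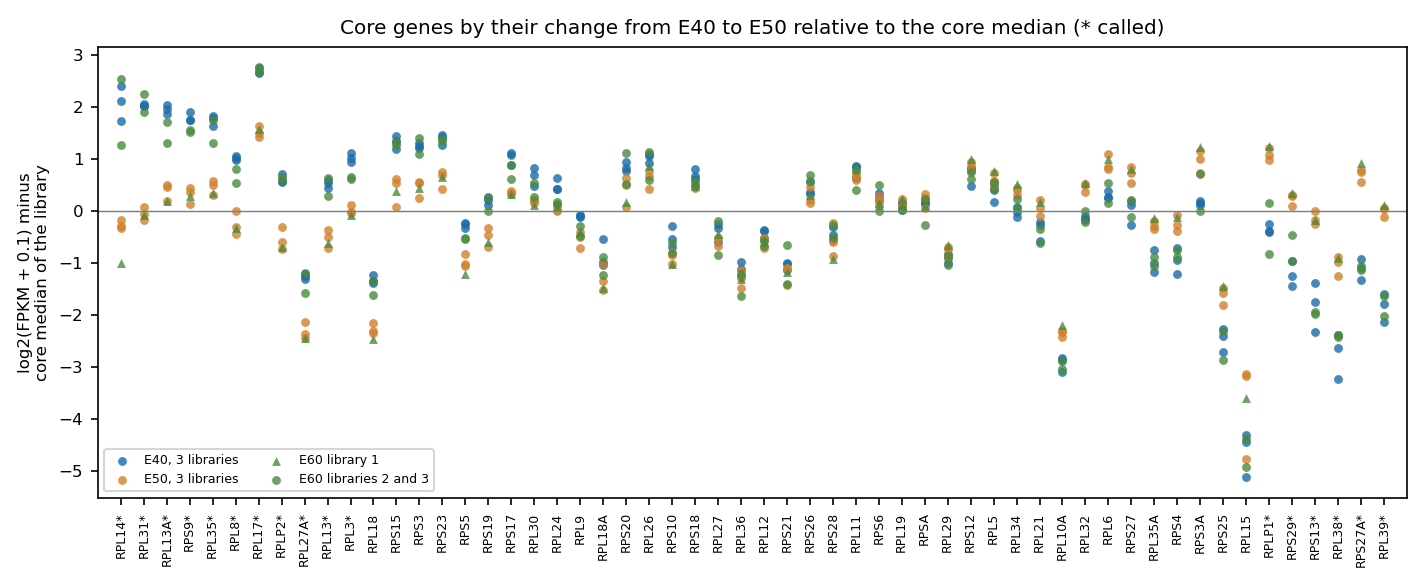
Level of each of 56 core genes relative to the core median of its library (log2), ordered by the change from E40 to E50, with an asterisk where the change was called. At both ends of the plot, from RPL14 to RPL39, the triangles of E60 library 1 lie with the orange E50 points and the green circles of E60 libraries 2 and 3 lie with the blue E40 points.

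Of the members named for a known role, RPL38, RPLP1, RPS27A and RPLP2 were called relative to the core median, as described above, and the others were not. RPS6, the S6 kinase substrate, measured 511, 627 and 800.5 FPKM at E40, 1518, 1529 and 1766 FPKM at E50, and 1300.0, 384 and 678 FPKM at E60. Its E50 libraries were all above E40, with a log2 fold change of 1.33 ± 0.52 that missed the threshold (SE, limma, adjusted p = 0.0665). RPL5, which with RPL11 and 5S ribosomal RNA binds MDM2 and so stabilizes p53, gave 1.62 ± 0.61 (SE, limma, adjusted p = 0.062). On the scale of the core median, the log2 fold changes of RPS6, RPL5, RPL11, RPSA and RPS26 lay between -0.14 and 0.23 and none was called. RPS19, which is mutated in some patients with Diamond-Blackfan anaemia, measured 484, 607 and 763 FPKM at E40, 1047, 768 and 1191 FPKM at E50, and 765, 272 and 808 FPKM at E60. The E50 values were above all E40 values, and on the scale of the core median its log2 fold change was -0.69 ± 0.25 and missed the threshold (SE, limma, adjusted p = 0.0562). RPS4 rose as deposited, by 2.10 ± 0.65 on the log2 scale (SE, limma, adjusted p = 0.0336), from 193 to 388 FPKM at E40 to 999 to 1356 FPKM at E50, and was not called relative to the core median, at 0.71 ± 0.25 (adjusted p = 0.0537).

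Of the 6 paralogs, 5 were detected, all at low levels. RPL22L1, a paralog of RPL22, measured 7.21, 12.9 and 15.3 FPKM at E40, 80.2, 90.6 and 115 FPKM at E50, and 115, 11 and 15.4 FPKM at E60. It was the only paralog called on both scales, at 3.06 ± 0.78 as deposited and 1.66 ± 0.47 relative to the core median (SE, limma, adjusted p = 0.0184 and 0.0238). These calls rest on few reads, as RPL22L1 had 4, 8 and 12 at E40 and 9 and 16 in E60 libraries 2 and 3. RPL26L1 rose as deposited from 17.5, 28.5 and 26.0 FPKM to 70.5, 80.7 and 95.8 FPKM (log2 fold change 1.79 ± 0.61, SE, limma, adjusted p = 0.0445). At E40 it had 11, 20 and 23 reads. RPL7L1, RPL36AL and the p53-responsive RPS27L had log2 fold changes of 1.06 to 1.58 and were not called.

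The E60 libraries allowed a comparison of deeper and shallower libraries within a stage. Relative to the core median, the difference of E60 library 1 from E60 libraries 2 and 3 ranged from -2.90 to 2.01 over the 58 core genes, and that of E50 from E40 from -2.34 to 1.83. The differences had the same sign in 54 of the 58 genes, with a Spearman's rho of 0.974 across genes, and the comparisons share no library. For RPL39 the ratio of mean FPKM was 9.08 between E50 and E40 and 8.86 between E60 library 1 and E60 libraries 2 and 3. For RPL31 these ratios were 0.619 and 0.579. Within a set, stages were much closer: 0 of 58 genes differed by 1 or more on the log2 scale between E60 library 1 and E50, or between E60 libraries 2 and 3 and E40. The largest of these differences were -0.74 for RPL14 in E60 library 1 and 0.51 for RPS29 in E60 libraries 2 and 3. These comparisons between and within sets were not made over all features, so they were not read as particular to the members. In a limma fit with the library set as a term, 0 of 64 members were called between E40 and E50 on either scale, where 0.255% of all features were called as deposited and 0.107% relative to the core median. At an unadjusted p under 0.05 there were 0 members on either scale in that fit. The number of all features at that limit is not reported here, so this count was not read as a result about the members. All E40 libraries were shallower and all E50 libraries deeper, so this contrast rests on E60 library 1, a single library, set against E60 libraries 2 and 3, and the counts of 0 do not show that the stages were alike. For RPL39 the log2 fold change in that fit was -0.16 ± 0.86 as deposited and -0.12 ± 0.33 relative to the core median (SE, limma, adjusted p = 0.982 and 0.997).

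From E50 to E60, limma called 0 of the 64 members over all 9 libraries, where 0.0714% of all features were called as deposited and 0.479% relative to the core median. At an unadjusted p under 0.05 there were 23 members as deposited and 6 relative to the core median. The number of all features at that limit is not reported here, so these counts were not read as a result about the members. On the recovered reads limma-voom called 0 members as well, where 0.709% and 1.18% of all features were called. The median log2 fold change of the core genes was -1.13, beside -0.64 over all features. After median-ratio scaling these values were -0.35 and 0.12. Without E60 library 1, 45 members were lower at E60 as deposited, where 59.1% of all features were called, 39.1% as lower. Relative to the core median 14 members were called without that library, with RPL14 and RPL31 among the 8 higher and RPL39, RPS27A and RPS13 among the 6 lower, where 35.6% of all features were called, 32.3% as higher and 3.28% as lower. The shallower E60 libraries were then set against deeper E50 libraries, so stage and depth cannot be told apart in these counts.

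From E40 to E60, limma called 0 of 64 members on either scale, with 1.8% of all features called as deposited and 2.29% relative to the core median. At an unadjusted p under 0.05 there were 0 members as deposited and 4 relative to the core median, and limma-voom called 0, beside 14.4% and 8.76% of all features. Without E60 library 1, where all libraries compared were shallow, 0 members were called as deposited, beside 6.06% of all features, and 0 relative to the core median, beside 2.46%, with 1 and 3 members at an unadjusted p under 0.05. For the counts at an unadjusted p the number of all features is not reported here, and nothing was read from them. The median log2 fold change of the core genes was -0.01 over all libraries, -0.37 without E60 library 1, 0.53 without E60 library 2 and 0.15 without E40 library 3. With all libraries it was 0.11 after median-ratio scaling, so its sign changed with the scaling and with the libraries used.

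Genes that work with the ribosomal proteins were called in part from E40 to E50, as deposited, where 16.8% of all features were higher and 21.8% lower. FAU, which encodes RPS30 as a fusion with a ubiquitin-like protein, was not called on that scale. It measured 719, 727 and 716 FPKM at E40, 519, 382 and 544 FPKM at E50, and 339, 389 and 733 FPKM at E60, and it fell by 1.99 on the log2 scale relative to the core median (limma, adjusted p = 0.0192). Of 14 other TOP mRNA genes tested, FAU among them, 4 rose: EIF3E and PABPC1, which act in initiation, the histone chaperone NAP1L1, and BTF3, of the nascent polypeptide complex. Of 31 ribosome biogenesis genes, 4 rose and 1 fell, with NOP58, NCL, NOLC1 and RIOK2 higher and NHP2 lower. Of 11 regulators of ribosomal protein synthesis, 1 rose, the translation repressor EIF4EBP2. Of 57 mitochondrial ribosomal protein genes, 12 rose and 3 fell. The median log2 fold changes of these lists were 1.41, 0.78, 0.69 and 1.13, beside 0.55 over all features. Relative to the core median 0, 0, 0 and 2 genes of the same lists were higher and 3, 8, 3 and 12 lower, where 3.09% of all features were higher and 34.5% lower. Nothing particular to these lists was read from the counts.

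Markers of other tissues changed with stage and with library set. The 4 skeletal muscle rows summed to 122 to 137 FPKM at E40, 15.5 to 16.6 FPKM at E50 and 3.85 to 9.88 FPKM at E60, with TNNT3 and CKM listed at 0. The 7 erythroid rows summed to 729 to 1026 FPKM at E50 and 674 FPKM in E60 library 1, and to 97.9 to 394 FPKM in the shallower libraries. HBB made up most of this sum, at 668 to 1016 FPKM in the deeper and 89.0 to 382 FPKM in the shallower libraries. EPB42 went the other way, at 1.68 to 8.84 FPKM in the shallower and at most 0.192 FPKM in the deeper libraries. The 3 leukocyte rows summed to at most 1.21 FPKM. The part of these cells in the levels of the members was not tested.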

How the data were processed

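Total RNA of Dm3 germs was depleted of rRNA and sequenced as 125 bp paired-end reads. The authors aligned reads with TopHat to the pig genome (Sscrofa10.2 per the labels) and deposited FPKM per row in 1 table, and a scaling between libraries is not given in the sources used here. Stages were taken from the labels. The members and gene lists were chosen with earlier results of these data known. Named were the most and least abundant core genes, those with the largest departures from the core median, all paralogs and members of known role.

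Whole reads were recovered from the steps of the deposited FPKM (27088 of 27090 rows above 0 in at least 2 libraries, tolerance 1e-04), and all read numbers were exact for 99.1% of 3998 simulated rows. Rows that reached 1 FPKM in 2 or more libraries were fitted by stage with limma 3.58.1 (R 4.3.3) with a mean-variance trend on log2(FPKM + 0.1). A fold change on this scale understates that of low genes. On simulated reads for E40 to E50, 97 of 200 rows changed by 2 on the log2 scale were called, as were 28 unchanged rows. Where the shallower libraries averaged over 50 reads, 43 of 60 changed and 1 of 3141 unchanged rows were called. Where they averaged under 10 reads, these were 4 of 27 and 27 of 8025. The simulated reads held no difference between deeper and shallower libraries other than depth, so these rates do not cover such a difference. Alternatives were other pseudocounts, filters and scalings, limma-voom, a replicate block, a library set term and leaving out each library. The subunits found only by RefSeq name were kept out of the fits' member counts. Some genes covered by these rules are counted but not reported by name here, nor drawn in the plots with gene names.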

Additional observations from a re-analysis of the deposited data

How the results depend on the processing

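The library set term was chosen after seeing the data, as were the shares with RefSeq-named subunits and of recovered reads. Under it, with E40 and E50 joined only through E60 library 1 against E60 libraries 2 and 3, the counts called from E40 to E50 went from 18 and 19 to 0 and 0, and the core medians to -0.14 (E40 to E50) and -0.22 (E50 to E60). Relative to the core median the log2 fold changes from E40 to E50 then turned to -0.12 for RPL39, -0.20 for RPS27A, -0.094 for RPS13, -0.15 for RPLP1, 0.56 for RPL14, 0.062 for RPL31, 0.16 for RPLP2, 0.040 for RPS19 and -0.028 for RPL22L1. As deposited they turned to -0.16 for RPL39, 0.51 for RPL14, -0.20 for RPLP1, -0.076 for RPL22L1, -0.55 for RPL26L1, -0.017 for RPS6, -0.041 for RPS4 and -0.10 for RPL5. The replicate numbers did not pair the libraries (correlations of same-numbered libraries from -0.515 to 0.109), and with a replicate block 7 of the 18 and 13 of the 19 members stayed called, with no change in the other comparisons. As deposited, the E40 to E50 count was 7 with no filter and 38 with only these stages in the fit, and the cause was not tested. The share of all features called was not counted for these fits or for the replicate block. Nor was it counted for fits without a single library, other than E60 library 1. Median-ratio scaling gave medians of 0.55 and -0.35. Other denominators gave mean shares at E40 and E50 of 11.9% and 19.3% without the 50 highest other rows, 13.0% and 19.5% of protein-coding rows and 4.65% and 6.60% of recovered reads. Spread at E40, E50 and E60 was 2.14, 1.92 and 2.06 with paralogs, and 1.40, 0.98 and 1.25 without RPS16. Leaving out single libraries gave 0 to 38 and 0 to 19 calls from E40 to E50, 0 to 45 and 0 to 14 from E50 to E60, and 0 to 0 and 0 to 1 from E40 to E60, as deposited and relative to the core median. Core medians were then 1.02 to 1.34, -1.54 to -0.57 and -0.37 to 0.53, mean shares 6.63% to 8.14%, 11.9% to 16.5% and 6.33% to 11.7%, and spreads 1.71 to 1.94, 1.61 to 1.75 and 1.71 to 1.91. Depth limits the shallower libraries, where a core gene other than RPS16 had as few as 21 reads and RPS16 had 0 to 2.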
